A study of Homo sapiens with 12 samples.

Results

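The aminoacyl-tRNA synthetase genes were taken as every row of the count table whose description names a tRNA synthetase or tRNA ligase and neither a pseudogene nor an antisense transcript. This rule gave 41 of 20771 rows. Of these, 19 encode cytosolic enzymes, 17 encode mitochondrial enzymes and 2 (GARS1 and KARS1) encode enzymes that serve both compartments. The remaining 3 rows are not synthetases themselves: AIMP1 and AIMP2 are scaffold proteins of the multisynthetase complex, and AARSD1 carries a domain related to the editing domain of alanyl-tRNA synthetase. The compartment of each product was assigned from general knowledge of the enzymes.

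RNA was sequenced from 2 Ewing sarcoma lines, EW8-RRM1-KO and TC71-RRM1-KO, with 3 libraries at 0 h and 3 at 48 h for each, 12 in all. In every group, controls included, endogenous RRM1 had been knocked out with CRISPR/Cas9, and the cells lived on a codon-optimized RRM1 transgene that is expressed only with doxycycline. The 0 h cells were grown with doxycycline and the 48 h cells had been without it for 48 h, so the 48 h minus 0 h difference compares cells before and after withdrawal of the transgene's inducer. No group without the transgene was sequenced, so an effect of doxycycline itself cannot be told apart from an effect of losing RRM1. The knockout lines were cloned from single cells, and how many clones were sequenced is not given in the sources used here, so a difference between the lines can include differences between clones.

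Aminoacyl-tRNA synthetases join each amino acid to its tRNA, the step that fixes the genetic code before the ribosome reads it. The cytosol and the mitochondria of human cells hold largely separate sets of these enzymes, all encoded in the nucleus, and several cytosolic enzymes assemble with AIMP1, AIMP2 and EEF1E1 into the multisynthetase complex. When charging falls short, uncharged tRNA activates the kinase GCN2 (EIF2AK4), translation of the transcription factor ATF4 rises, and ATF4 acts with C/EBP partners on response elements that many cytosolic synthetase genes carry near their start sites.

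RefSeq promoters (GRCh38.p14, from 250 bases before to 50 bases after the start) were matched to 33 of the 41 members. The 8 letters TGATGNAA, the core of the C/EBP-ATF response element, were searched on both strands. They were found in the promoters of 6 of the 14 cytosolic members with a promoter, in 1 of 14 mitochondrial members (YARS2) and in neither of the 2 that serve both compartments, against 3.62% of all 35116 promoters of this length. The 6 cytosolic windows are shown because they hold the letters by which this family is usually tied to ATF4, and each is written 5′ to 3′ on the gene's own strand with the match in capitals.
TARS1, chr5:33440907-33440986, + strand: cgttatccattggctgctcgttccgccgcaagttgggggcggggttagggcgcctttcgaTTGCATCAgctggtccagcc
IARS1, chr9:92293676-92293755, − strand: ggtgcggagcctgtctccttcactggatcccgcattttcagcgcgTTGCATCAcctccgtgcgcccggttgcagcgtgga
CARS1, chr11:3057402-3057481, − strand: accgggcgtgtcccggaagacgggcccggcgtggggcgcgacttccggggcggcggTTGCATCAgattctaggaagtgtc
MARS1, chr12:57488010-57488089, + strand: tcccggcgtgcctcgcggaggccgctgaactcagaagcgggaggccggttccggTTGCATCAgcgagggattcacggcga
AARS1, chr16:70289650-70289729, − strand: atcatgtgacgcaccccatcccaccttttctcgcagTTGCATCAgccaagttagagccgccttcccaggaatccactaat
NARS1, chr18:57621815-57621894, − strand: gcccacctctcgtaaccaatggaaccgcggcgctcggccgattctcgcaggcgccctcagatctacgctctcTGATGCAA

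In 5 of the 6 the letters lie within 22 bases of the start site, and in AARS1 they lie 187 bases before it. The E-box CACGTG stood in the promoters of 1 of 14 cytosolic and 3 of 14 mitochondrial members (MARS2, CARS2 and EARS2), against 7.26% of all promoters. The NRF1 motif, also read on both strands, stood in 3 of 14 cytosolic (SARS1, FARSB and TARS1) and 3 of 14 mitochondrial members (PARS2, IARS2 and MARS2), against 5.78%. A match is a description of the letters and not evidence of binding.

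The histidyl enzymes form a special pair. HARS1 (− strand) and HARS2 (+ strand) are transcribed away from each other from RefSeq starts at positions 140691370 and 140691455 of chromosome 5, and the 84 bases between the starts (chr5:140691371-140691454) are printed because it lies directly before both starts.
HARS1-HARS2, + strand: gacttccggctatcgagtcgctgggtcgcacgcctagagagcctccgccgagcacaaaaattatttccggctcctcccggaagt

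Library totals lay between 18468485 and 35698991 counts. All 41 members passed the filter on low counts that left 16515 genes for testing. All 8 Ewing sarcoma markers checked were expressed, with group means from 8.34 to 1500 CPM (counts scaled to a common, TMM-adjusted library size). Of 6 markers of other cells, 4 were measured, and the leukocyte gene PTPRC stayed at or below 0.219 CPM in every library. Their summed level was 23.9 to 26.4 CPM at 0 h and 55.7 to 63.5 CPM at 48 h in EW8, and 37.4 to 40.9 and then 61.9 to 64.7 CPM in TC71, nearly all of it COL1A1 and DCN, and its part in the results below was not tested. The RRM1 row rose after doxycycline was withdrawn, from 9.37, 9.51 and 9.67 to 63.9, 72.6 and 74.1 CPM in EW8 and from 15.7, 15.5 and 17.3 to 25.7, 26.4 and 24.1 CPM in TC71. How reads of the codon-optimized transgene were counted is not given in the sources used here, so this row does not check the labels.

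At 0 h, synthetase levels were compared per kilobase of merged exons, taken over all annotated transcripts of a gene. The median cytosolic enzyme stood at 55.4 CPM per kilobase in EW8 and 39.2 in TC71, and the median mitochondrial enzyme at 7.98 and 7.94. The cytosolic set ran in EW8 from 3.51 for TARS3, a second threonyl enzyme, to 133 for NARS1, the asparaginyl enzyme. The mitochondrial set ran from 0.574 for SARS2, the seryl enzyme, to 65.2 for IARS2, the isoleucyl enzyme, which exceeded the median cytosolic level on this scale. The same genes held both ends in TC71, with TARS3 at 4.32, NARS1 at 89.9, SARS2 at 0.668 and IARS2 at 64.8 CPM per kilobase. GARS1 and KARS1 stood at 29.3 and 79.3 in EW8 and at 18.97 and 62.4 in TC71. The level of SARS2 is uncertain, because 48.2% of its exon bases are shared with another gene on the same strand and how such reads were assigned is not given in the sources used here. Merged exons can be far longer than the mature mRNA (17366 bases for GARS1), which lowers such a gene on this scale.

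The first comparison asks how the genes respond to withdrawal of doxycycline in EW8. At an adjusted p below 0.05 (edgeR's quasi-likelihood test, Benjamini-Hochberg over all 16515 genes), 13 of the 41 members were higher and 21 were lower at 48 h, while 37.0% of all genes tested were higher and 31.6% lower. The share of members that rose (31.7%) was thus close to that of all genes, and the share that fell (51.2%) was above it. With libraries scaled by total counts alone, 16 members were higher and 18 lower (39.0% and 43.9%, beside 43.6% and 24.4% of all genes). With upper-quartile factors 10 were higher and 23 lower (24.4% and 56.1%, beside 34.8% and 33.9% of all genes). No member passed a fold of 2 as well, which 17.2% of all genes did. The groups of libraries did not overlap for 12 members that were higher at 48 h and 22 that were lower, against 37.9% and 33.2% of all genes. All these p-values measure the spread between libraries, which are not stated to be separate cultures. In RNA from whole cultures, fewer cells that express a gene cannot be told apart from less of its RNA per cell.

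Members of both compartments moved each way in EW8. Among the 17 mitochondrial enzymes 5 rose, 10 fell and 2 were not called, and among the 19 cytosolic enzymes 7 rose, 8 fell and 4 were not called. The median log2 fold change was −0.30 for mitochondrial and −0.03 for cytosolic enzymes, beside 0.03 for all genes. When libraries were scaled by total counts alone, the cytosolic median turned to 0.09 and that of all genes to 0.16, so its sign changed while it stayed below the median of all genes.

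Tryptophanyl-tRNA synthetase marked both ends of the EW8 response. WARS1, the cytosolic enzyme, which is also known as an interferon-inducible gene, lies at chr14:100333790-100376805 (− strand, hg38). Its EW8 libraries held 508, 523 and 516 CPM at 0 h and 834, 883 and 872 CPM at 48 h. The groups lay far apart, and WARS1 was 1.67-fold higher at 48 h (log2 0.74 ± 0.0353 SE, adjusted p = 3.21e-19 by edgeR), the largest rise of any member. WARS2, the mitochondrial enzyme (chr1:119031216-119140654, − strand), held 20.2, 20.0 and 20.6 CPM at 0 h and 10.4, 11.8 and 11.7 CPM at 48 h. It was 1.79-fold lower (log2 −0.84 ± 0.0781, adjusted p = 1.00e-11 by edgeR), the largest fall of any member.

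The next largest rises came from 2 mitochondrial enzymes and 1 cytosolic enzyme. FARS2, the mitochondrial phenylalanyl enzyme, held 21.0, 21.4 and 19.2 CPM at 0 h and 28.5, 31.3 and 29.7 CPM at 48 h (log2 0.55 ± 0.0676, adjusted p = 8.85e-09 by edgeR). The mitochondrial histidyl enzyme HARS2 held 24.9, 24.1 and 26.8 CPM before and 34.0, 36.3 and 33.0 CPM after withdrawal (log2 0.44 ± 0.0622). Cytosolic alanyl enzyme AARS1 went from 345, 379.6 and 361 CPM to 477, 478 and 493 CPM (log2 0.42 ± 0.0373). In all 3 genes every 48 h library was above every 0 h library. HARS1, across the divergent promoter from HARS2, rose by less (log2 0.11 ± 0.0431, adjusted p = 0.0193 by edgeR), and that call was lost when any 1 of the EW8 0 h libraries was left out (adjusted p from 0.0684 to 0.199). In all, 8 of the alternatives tried lost it, among them upper-quartile factors (adjusted p = 0.108 by edgeR) and each line alone (adjusted p = 0.0880 by edgeR). HARS1 and HARS2 share 108 exon bases on opposite strands.

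The other members that rose in EW8 were CARS1 (log2 0.37), VARS2 (0.31), SARS1 (0.30), AIMP2 (0.25), RARS2 (0.19), FARSA (0.17), LARS1 (0.15) and NARS2 (0.14). Not all of these calls held throughout. NARS2 was lost under 15 of the alternatives tried, FARSA without the 0 h replicate 1 (adjusted p = 0.202 by edgeR) or replicate 3 (adjusted p = 0.0926 by edgeR), and RARS2 without the 0 h replicate 1 (adjusted p = 0.0762 by edgeR). Without that library, only 3 mitochondrial enzymes were called higher. AIMP2 shares 29.1% of its exon bases with EIF2AK1 on the opposite strand, and VARS2 shares 63.0% with a long noncoding RNA on the same strand, and the share of reads so affected was not tested.

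After WARS2, the next largest falls in EW8 were all of mitochondrial enzymes. EARS2, the glutamyl enzyme, held 63.8, 64.2 and 67.1 CPM at 0 h and 41.9, 41.5 and 39.2 CPM at 48 h (log2 −0.67 ± 0.0519, adjusted p = 1.25e-13 by edgeR). Prolyl enzyme PARS2 was expressed at a low level and went from 8.19, 9.11 and 9.03 to 5.32, 6.17 and 5.09 CPM (log2 −0.67 ± 0.106, adjusted p = 9.87e-07 by edgeR). The groups did not overlap in either gene. IARS2 fell alongside, from 273, 254 and 281 to 170.0, 182 and 164 CPM (log2 −0.65 ± 0.0436), and it had the highest level of the mitochondrial set per kilobase. SARS2 rested on few reads, with 42, 29 and 60 counts at 0 h and 20, 14 and 33 counts at 48 h. It was called lower (log2 −0.66 ± 0.254, adjusted p = 0.0194 by edgeR), but not without the 48 h replicate 1 (adjusted p = 0.0556 by edgeR) or replicate 2 (adjusted p = 0.171 by edgeR), and the gene with which it shares exon bases is annotated as protein-coding.

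Of the cytosolic enzymes that fell in EW8, TARS3 fell most. TARS3 (log2 −0.54), RARS1 (−0.47), MARS1 (−0.41), EPRS1 (−0.36), FARSB (−0.35), IARS1 (−0.27) and NARS1 (−0.23) were lower at 48 h, each without overlap between its groups. Mitochondrial AARS2 (−0.46), CARS2 (−0.31), MARS2 (−0.30) and LARS2 (−0.12) were lower too, as were the scaffold gene AIMP1 (−0.32) and the 2 genes for both compartments. The LARS2 call was lost without the 48 h replicate 1 (adjusted p = 0.0759 by edgeR) and its value turned to 0.00 when libraries were scaled by total counts alone. TARS1, TARS2, QARS1, YARS1, YARS2, VARS1 and AARSD1 did not pass the test, with log2 fold changes from −0.20 to 0.02.

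**Figure D1:**
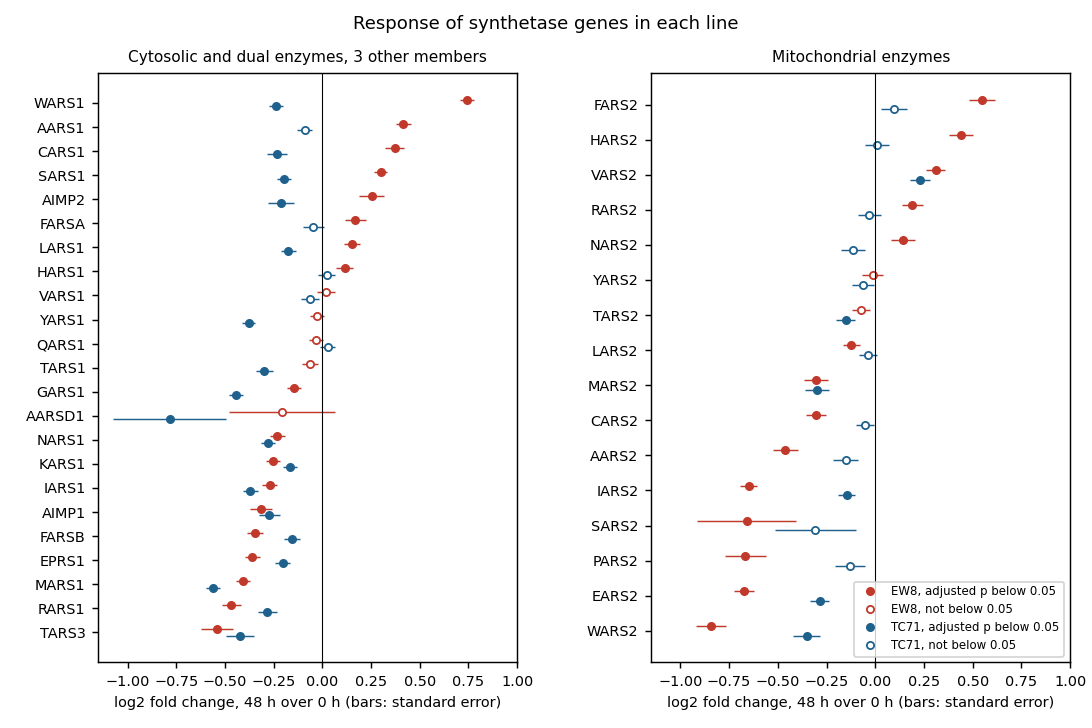
Log2 fold change at 48 h over 0 h (horizontal axis, bars show the standard error) for the members in EW8 (red) and TC71 (blue), with filled points for an adjusted p below 0.05; the left panel holds the cytosolic and dual enzymes and the 3 other members, the right panel the mitochondrial enzymes. WARS1 (0.74) and WARS2 (−0.84) mark the ends in EW8, and in TC71 only VARS2 is filled to the right of 0.

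In TC71 nearly all called members were lower after withdrawal. Only 1 member, the mitochondrial valyl enzyme VARS2, was higher at 48 h, and 24 of the 41 were lower, while 22.9% of all genes were higher and 19.2% lower. Members thus rose in 2.44% and fell in 58.5% of cases. No member passed a fold of 2, which 4.12% of all genes did. Libraries did not overlap for 1 member that was higher and 25 that were lower, against 25.9% and 23.7% of all genes.

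The falls called in TC71 lay mostly with the cytosolic enzymes. These had more reads, with a median of 282 CPM at 0 h against 38.0 CPM for the mitochondrial enzymes. Changes of like size could thus differ in their call: AARS2 (log2 −0.15 ± 0.0632) was not called, while FARSB (−0.16 ± 0.0403) was. Of the 19 cytosolic enzymes 14 fell, none rose and 5 were not called, and of the 17 mitochondrial enzymes 5 fell, 1 rose and 11 were not called. The TARS2 call was lost without the 0 h replicate 3 (adjusted p = 0.0597 by edgeR). The scaffold gene AIMP2 (log2 −0.21) lost its call without the 0 h replicate 2 (adjusted p = 0.0546 by edgeR) or the 48 h replicate 2 (adjusted p = 0.0698 by edgeR). The median log2 fold change in TC71 was −0.20 for cytosolic and −0.11 for mitochondrial enzymes, beside 0.00 for all genes.

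The methionyl enzyme MARS1 (chr12:57475445-57517569, + strand) fell most among members with ample counts. Its TC71 libraries held 301, 312 and 308 CPM at 0 h and 214, 204 and 207 CPM at 48 h (log2 −0.56 ± 0.0363, adjusted p = 1.71e-14 by edgeR). In EW8 it fell from 581, 613 and 591 to 451, 445 and 448 CPM. MARS1 shares 355 exon bases (5.05% of its exons) with DDIT3 on the opposite strand, and the strand setting of the counting is not given in the sources used here. DDIT3 rose while MARS1 fell, from 4.86, 5.84 and 4.39 to 173, 179 and 183 CPM in EW8 and from 4.58, 5.44 and 4.14 to 27.6, 32.6 and 32.3 CPM in TC71, and the part of shared reads in the MARS1 value was not tested.

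GARS1, the glycyl enzyme of both compartments (chr7:30580533-30634033, + strand), fell in TC71 from 334, 322 and 333 to 236, 245 and 246 CPM (log2 −0.44 ± 0.0360, adjusted p = 4.28e-12 by edgeR). In EW8 it went from 508, 497 and 519.7 to 456, 468 and 454 CPM (log2 −0.15 ± 0.0355), a smaller fall that was lost when libraries were scaled by total counts alone (log2 −0.02). KARS1, the lysyl enzyme of both compartments, fell in each line, from 321, 315 and 327 to 266, 271 and 272 CPM in EW8 and from 249.9, 255 and 253 to 222, 225 and 229 CPM in TC71 (log2 −0.25 ± 0.0362 and −0.16 ± 0.0363). The groups of neither gene overlapped in either line.

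TARS3 fell in TC71 from 19.7, 19.4 and 18.6 to 14.5, 13.9 and 14.6 CPM (log2 −0.42 ± 0.0729) and in EW8 from 16.4, 15.1 and 15.4 to 11.3, 11.3 and 9.74 CPM. AARSD1 had the largest fitted fall in TC71 (log2 −0.78 ± 0.290, adjusted p = 0.0268 by edgeR), but on 30, 20 and 37 counts at 0 h and 16, 30 and 14 counts at 48 h, which overlap. That call was lost without the 0 h replicate 3 (adjusted p = 0.165 by edgeR), the 48 h replicate 1 (adjusted p = 0.0786 by edgeR) or the 48 h replicate 3 (adjusted p = 0.203 by edgeR), and without the 48 h replicate 2 the value was −1.24. It was also lost in the Wald test of DESeq2 (adjusted p = 0.0657) and with each line alone (adjusted p = 0.0602 by edgeR). AARSD1 shares 34.2% of its exon bases with PTGES3L-AARSD1 on the same strand, and the share of reads so affected was not tested. VARS2, the exception upward, held 71.8, 72.6 and 71.9 CPM at 0 h and 87.7, 83.6 and 82.5 CPM at 48 h in TC71 (log2 0.23 ± 0.0508, adjusted p = 3.85e-04 by edgeR). In EW8 it went from 82.8, 97.2 and 83.9 to 110.5, 106 and 109 CPM (log2 0.31 ± 0.0505), again with every 48 h library above every 0 h library.

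Set side by side, 15 of the 41 members were lower in both lines, as were 14.3% of all genes, and 1, VARS2, was higher in both, as were 17.6%. A group of 5 was called higher in EW8 and lower in TC71, a pair of calls that 1.22% of all genes had: SARS1, LARS1, CARS1, WARS1 and AIMP2, of which 4 are cytosolic synthetases and none is mitochondrial. Another 7 rose in EW8 without a call in TC71, 6 fell in EW8 without one and 4 fell in TC71 without a call in EW8, against 18.2%, 15.7% and 3.72% of all genes. PARS2, LARS2, AARS2, CARS2 and SARS2 were among the 6 that fell in EW8 without a TC71 call, a share close to that of all genes. AARS2 missed the threshold in TC71 narrowly (log2 −0.15, adjusted p = 0.0507 by edgeR), and the EW8 calls of LARS2 and SARS2 were lost when single libraries were left out. QARS1, VARS1 and YARS2 were called in neither line, where 24.0% of all genes stood. QARS1, the glutaminyl enzyme, has no mitochondrial counterpart because mitochondria make glutaminyl-tRNA by amidation.

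**Figure D2:**
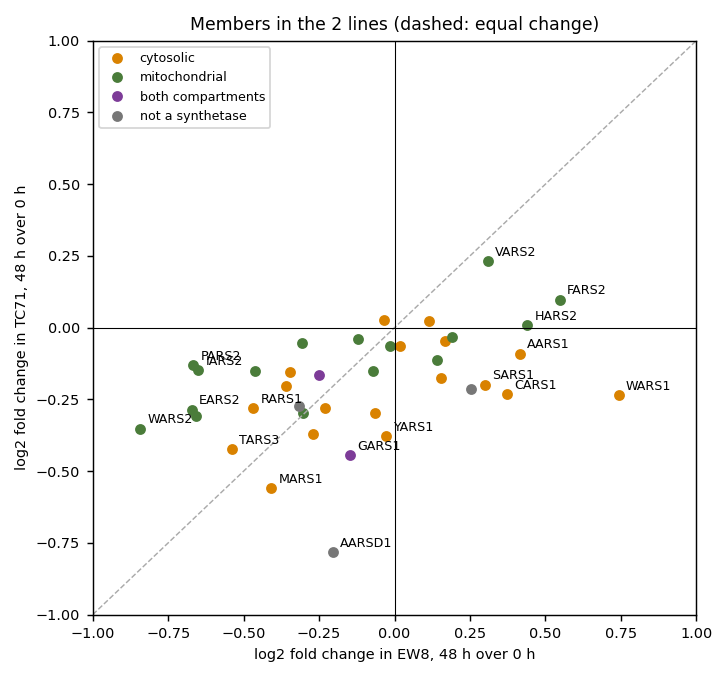
Log2 fold change at 48 h over 0 h in EW8 (horizontal axis) against TC71 (vertical axis) for members coloured by compartment, with the dashed line marking equal change. WARS1 (0.74 and −0.24) and CARS1 (0.37 and −0.23) lie to the right of and below zero, and PARS2 (−0.67 and −0.13) lies at the left, above the dashed line.

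The difference between the responses was tested itself, as the EW8 log2 fold change minus that of TC71. It was positive for 15 members and negative for 11 at an adjusted p below 0.05 (48.1% of all genes passed, 25.7% as positive and 22.4% as negative). A difference above 2-fold was reached by none of the members and by 8.26% of all genes. Among cytosolic enzymes 9 were positive and 4 negative, and among mitochondrial enzymes 4 were positive and 7 negative. Scaling by total counts alone gave 19 positive and 8 negative (46.3% and 19.5%), beside 30.4% and 17.8% of all genes under that scaling. Of the smaller differences, 6 lost their call when 1 library was left out. EPRS1 did so without the EW8 48 h replicate 1 or 3 (adjusted p = 0.0619 and 0.0698 by edgeR), and MARS1 without the EW8 0 h replicate 1 or 3 (adjusted p = 0.0948 and 0.0583 by edgeR). NARS2 did so without the EW8 0 h replicate 1 or 2 or the TC71 48 h replicate 1 (adjusted p from 0.0507 to 0.105 by edgeR). For RARS1 the libraries were the EW8 0 h replicate 3, the EW8 48 h replicate 2, the TC71 0 h replicate 1 and the TC71 48 h replicate 3 (adjusted p from 0.0591 to 0.0774 by edgeR). For RARS2 they were the EW8 0 h replicates 1 and 2, the EW8 48 h replicate 2, the TC71 0 h replicate 2 and the TC71 48 h replicate 1 (adjusted p from 0.0537 to 0.114 by edgeR). For FARSA they were the EW8 0 h replicates 1 and 3, the EW8 48 h replicate 1, and replicate 2 of both TC71 groups (adjusted p from 0.0543 to 0.118 by edgeR).

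The largest positive interactions all belonged to cytosolic enzymes. In WARS1 the TC71 libraries went down, from 399, 389 and 384 to 324, 331 and 341 CPM, where those of EW8 had gone up (difference 0.98 ± 0.0502 on the log2 scale, adjusted p = 4.89e-17 by edgeR). CARS1, the cysteinyl enzyme, went from 85.7, 91.2 and 85.8 to 114, 109 and 116 CPM in EW8 and from 59.3, 62.0 and 59.5 to 49.0, 49.98 and 54.6 CPM in TC71 (difference 0.60 ± 0.0698, adjusted p = 8.39e-09 by edgeR). For AARS1 the TC71 libraries held 268, 269 and 266 CPM at 0 h and 252, 247 and 254 CPM at 48 h, all lower but short of the threshold (adjusted p = 0.0508 by edgeR), and the difference between the lines was 0.51 ± 0.0531. In WARS1 and CARS1 the libraries of each line separated in opposite directions.

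The largest negative interactions all belonged to mitochondrial enzymes. PARS2 held 16.7, 17.4 and 16.3 and then 16.4, 14.6 and 15.03 CPM in TC71 (difference −0.54 ± 0.131, adjusted p = 9.16e-04 by edgeR). IARS2 went from 265, 269 and 269.6 to 231, 244 and 249.6 CPM in TC71, a fall that was smaller than in EW8 (difference −0.50 ± 0.0609, adjusted p = 2.27e-08 by edgeR). MARS2, for methionine, was the member whose responses differed least, with −0.30 in each line and a difference of −0.01 ± 0.0858.

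**Figure D3:**
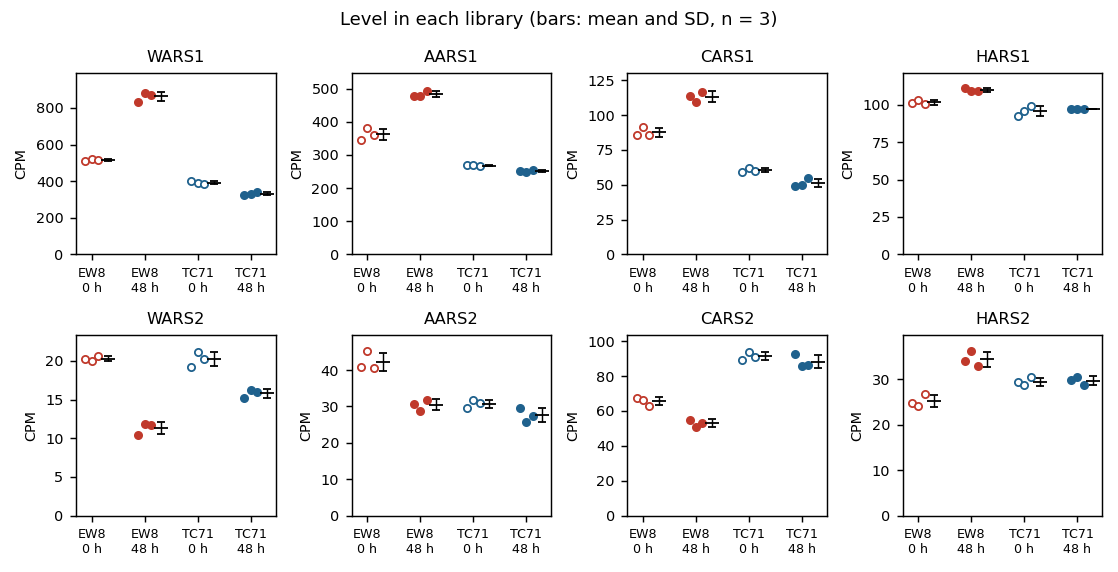
CPM of 4 cytosolic genes (top) and their mitochondrial counterparts (bottom) in each library, with open points at 0 h, filled points at 48 h and the mean and SD of the 3 libraries beside them. WARS1, AARS1 and CARS1 rise in EW8 while WARS2, AARS2 and CARS2 fall, and for histidine the mitochondrial HARS2 (log2 0.44) rises more than HARS1 (0.11).

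The comparison of compartments was also made within each library, where the ratio of the sums needs no scaling between libraries but the sums themselves do. The 19 cytosolic genes summed to 6456 ± 64.1 CPM at 0 h and 6522 ± 90.5 CPM at 48 h in EW8 (SD, n = 3), and the 17 mitochondrial genes to 1108 ± 22.02 and 927 ± 10.4 CPM. The ratio of the sums in the single libraries was 5.82, 5.91 and 5.76 at 0 h and 6.96, 7.02 and 7.13 at 48 h. In TC71 the cytosolic sum went from 5027 ± 21.8 to 4332 ± 74.6 CPM and the mitochondrial sum from 1057 ± 13.1 to 994 ± 13.7 CPM. The TC71 ratio was 4.85, 4.72 and 4.70 at 0 h and 4.32, 4.38 and 4.38 at 48 h. The ratio thus went up in EW8 and down in TC71, without overlap between groups in either line. Abundant genes weigh most in these sums. In EW8 the mean of WARS1 alone went from 515 to 863 CPM, a larger rise than that of the whole cytosolic sum. The mean of IARS2 went from 270 to 172 CPM within the mitochondrial sum. The ratio without these genes was not computed. How much each sum moved depended on the scaling. As CPM of total counts, with no TMM factor (an alternative chosen after seeing the data), the EW8 cytosolic sum went from 5978 ± 53.5 to 6582 ± 37.8 and the mitochondrial sum from 1026 ± 12.8 to 936 ± 7.40, so that both sums moved, in opposite directions. In TC71 these sums went from 5103 ± 22.5 to 4554 ± 69.2 and from 1073 ± 14.02 to 1045 ± 13.3. Summed per kilobase, the ratio went from 4.94 ± 0.0861 to 6.07 ± 0.0712 in EW8 and from 4.08 ± 0.0595 to 3.85 ± 0.0253 in TC71. No p-value is given for these sums, because the members were chosen with results of these data known.

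**Figure D4:**
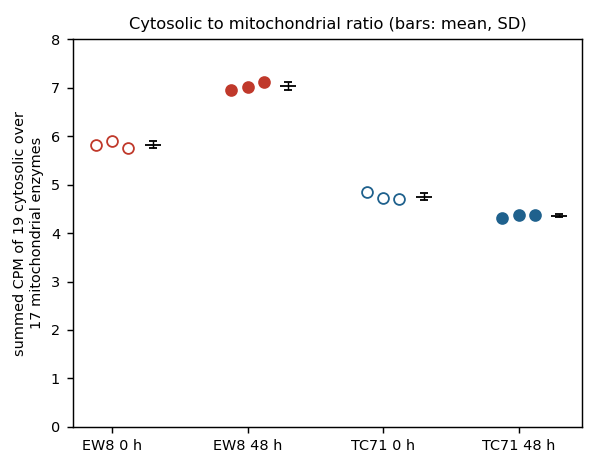
Ratio of the summed CPM of 19 cytosolic to that of 17 mitochondrial enzymes (vertical axis) in each library, with the mean and SD (n = 3) beside each group. EW8 rises from 5.83 to 7.03 and TC71 goes from 4.76 to 4.36, with no overlap between 0 h and 48 h in either line.

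Enzymes for the same amino acid were then set against each other in 17 pairs of a cytosolic and a mitochondrial gene, in which EPRS1 and FARS2 each stand in 2 pairs. EPRS1 charges both glutamate and proline, and cytosolic phenylalanyl-tRNA synthetase has the subunits FARSA and FARSB where the mitochondrial enzyme FARS2 is a single chain. In EW8 the cytosolic gene had the higher log2 fold change in 9 pairs and the lower in 8, with a median difference of 0.0089. In TC71 it had the higher in 5 and the lower in 12, with a median of −0.14.

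The EW8 differences spread widely, from 1.59 for WARS1 over WARS2 to −0.89 for FARSB against FARS2, and those of TC71 lay between −0.31 and 0.12. In EW8 the largest differences in favour of the cytosolic gene after tryptophan were for serine (0.96), alanine (0.88) and cysteine (0.68). The serine value rests on the few reads of SARS2, whose EW8 log2 fold change lay between −1.02 and −0.41 when 1 library was left out, so the order of serine and alanine is not settled. In favour of the mitochondrial gene they were for phenylalanine, arginine (−0.66 for RARS1 against RARS2) and asparagine (−0.37). For valine, VARS1 minus VARS2 was −0.29 in EW8 and −0.30 in TC71. The ratio of cytosolic to mitochondrial CPM was higher in every 48 h library for 8 pairs and lower in every one for 7 in EW8, and the counts in TC71 were 1 and 9.

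**Figure D5:**
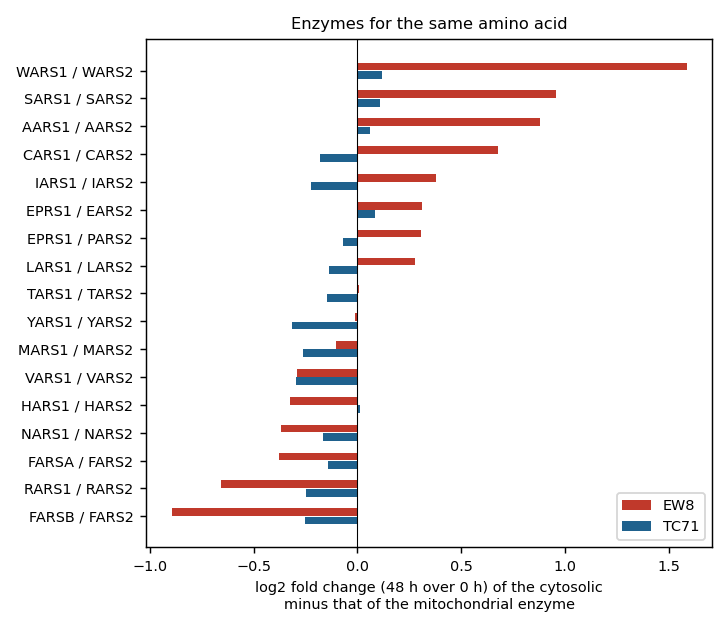
Log2 fold change (48 h over 0 h) of the cytosolic gene minus that of its mitochondrial counterpart (horizontal axis) for 17 pairs in EW8 (red) and TC71 (blue); no error is drawn, because the bars are differences of fitted values. EW8 bars reach from −0.89 to 1.59 and TC71 bars from −0.31 to 0.12.

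The synthetases of the multisynthetase complex mostly fell in both lines. For the counts of this and the other gene lists, the shares of all genes were 37.0% higher and 31.6% lower in EW8 and 22.9% and 19.2% in TC71, with medians of 0.03 and 0.00. Of its 8 synthetase genes, 6 fell in EW8, 1 (LARS1, the leucyl enzyme) rose and 1 (QARS1) was not called, with a median log2 fold change of −0.31. In TC71, 7 (87.5%) fell and QARS1 was not called, with a median of −0.19. The 13 cytosolic or dual genes outside the complex split in EW8 into 6 that rose, 4 that fell and 3 not called (median 0.02), and in TC71 into 9 that fell and 4 not called (median −0.23). In EW8 the share of these that fell (30.8%) was close to that of all genes. AIMP1 followed the complex downward in both lines, from 57.5, 51.7 and 55.7 to 42.6, 45.4 and 44.5 CPM in EW8 and from 64.7, 66.3 and 67.2 to 53.9, 58.7 and 51.6 CPM in TC71. AIMP2 rose in EW8 and fell in TC71 (log2 0.25 and −0.21). The enzymes also fall into 2 structural classes, built on different catalytic folds. In EW8 class I genes gave 5 higher and 9 lower of 18 and class II genes 7 and 10 of 19, and in TC71 they gave 1 and 11, and 0 and 9. In both lines and both classes the share lower was above that of all genes, at 61.1% for class I and 47.4% for class II in TC71. EPRS1, which joins an enzyme of each class, was left out of that count.

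The 6 cytosolic carriers of the TGATGNAA letters shown above did not share a direction in EW8. AARS1 (0.42) and CARS1 (0.37) rose, MARS1 (−0.41), IARS1 (−0.27) and NARS1 (−0.23) fell, and TARS1 (−0.06) did not pass the test. In TC71, TARS1 (−0.30), IARS1 (−0.37), CARS1 (−0.23), MARS1 (−0.56) and NARS1 (−0.28) fell, and AARS1 (−0.09) did not pass the test.

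Genes that work beside the synthetases in charging also fell more often than they rose. Of 15 charging partners tested, among them the members AIMP1, AIMP2 and AARSD1, 11 fell in TC71 and none rose, and in EW8 7 fell and 3 rose (medians −0.24 and −0.20). The share that fell was 73.3% in TC71, where 19.2% of all genes did, and 46.7% in EW8, where 31.6% did. DTD1, which removes D-amino acids from tRNA, fell by 1.11 on the log2 scale in EW8 and by 0.60 in TC71. EEF1E1 fell by 0.57 and 0.24, and the tRNA exporter XPOT fell by 0.30 and 0.41. XPOT is also counted among the amino acid response targets below. The 3 partners that rose in EW8 were PTRH2 (log2 0.41), AIMP2 (0.25) and SEPSECS (0.25). Among 9 elongation factors tested, 7 fell in EW8 (77.8%) and 6 in TC71 (66.7%), and none rose in either (medians −0.30 and −0.12).

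The kinase and transcription factor that respond to uncharged tRNA were also lower as mRNA. EIF2AK4 (GCN2) fell by 0.51 in EW8 and 0.22 in TC71, and ATF4 fell by 0.27 and 0.42 on the log2 scale, with ATF4 libraries at 629, 644 and 634 CPM before and 535, 523 and 522 CPM after withdrawal in EW8. ATF4 is regulated chiefly in translation, which mRNA counts do not measure. Of 11 genes of this axis, EW8 had 3 that rose and 7 that fell, and TC71 had 3 and 5. The shares that fell were 63.6% and 45.5%, above the 31.6% and 19.2% of all genes, and the 27.3% that rose in TC71 was close to the 22.9% of all genes. PPP1R15A, which directs dephosphorylation of eIF2α, was the only one past an adjusted p of 0.05 and a fold of 2 in both lines (log2 3.67 and 1.75).

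Targets of the amino acid response went both ways. Of 34 tested, 20 were higher and 11 lower in EW8 (median 0.30), and TC71 had 13 that were higher and 15 that were lower (median −0.08). In EW8 the share higher (58.8%) was above that of all genes (37.0%) while the share lower (32.4%) was close to it (31.6%), and in TC71 both shares (38.2% and 44.1%) were above those of all genes (22.9% and 19.2%). DDIT3, which encodes CHOP (log2 5.18 and 2.72), ATF3 (4.89 and 3.37), DDIT4 (2.74 and 1.16) and SESN2 (2.43 and 1.06) rose past a fold of 2 in both lines. GDF15 also passed both thresholds, but its EW8 libraries were at 0 at 0 h and no fold is given. These genes are also known to answer to other stresses than amino acid shortage. ASNS, asparagine synthetase, the classical amino acid response gene, went the other way, from 206, 212 and 206 to 140.3, 144 and 142 CPM in EW8 and from 135, 126 and 132 to 59.4, 66.1 and 60.2 CPM in TC71 (log2 −0.55 and −1.08). It was not alone among the targets lower in both lines, which also held PSAT1 (−0.67 and −0.57), PHGDH (−0.63 and −0.35) and PYCR1 (−0.88 and −0.51).

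The lines also differed before withdrawal. At 0 h, 22 members were higher in EW8 than in TC71 and 8 were lower at an adjusted p below 0.05, while 32.8% of all genes were higher and 32.9% lower. Scaling by total counts alone gave 20 and 12 (48.8% and 29.3%, beside 23.7% and 42.0% of all genes under that scaling), and under it EPRS1 turned from 0.12 to −0.02. EPRS1 lost its call without the TC71 0 h replicate 2 (adjusted p = 0.0637 by edgeR). No member differed by more than 2-fold, which 16.7% of all genes did. Of the 19 cytosolic enzymes 14 were higher in EW8 and 3 lower, with a median log2 difference of 0.34. Of the 17 mitochondrial enzymes 6 were higher and 4 lower, with a median of 0.01, beside −0.01 for all genes.

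The largest differences at 0 h were again of single enzymes. MARS1 was 1.94-fold higher in EW8 (log2 0.95 ± 0.0357, adjusted p = 5.16e-22 by edgeR), GARS1 1.54-fold (log2 0.63 ± 0.0356) and FARSB, with 379.6, 359 and 385 CPM in EW8 and 253, 249.2 and 253 CPM in TC71, 1.49-fold (log2 0.58 ± 0.0401). In the other direction PARS2 was 1.91-fold lower in EW8 (log2 −0.94 ± 0.0861, adjusted p = 1.06e-11 by edgeR). CARS2 held 67.5, 66.0 and 63.0 CPM in EW8 and 89.3, 93.9 and 91.1 CPM in TC71 (log2 −0.48 ± 0.0485), while its cytosolic counterpart CARS1 was higher in EW8 (log2 0.54 ± 0.0495). TARS3 was lower in EW8 by less (log2 −0.30 ± 0.0738). The EW8 and TC71 contrasts at 48 h share these 0 h libraries with the comparison at 0 h, so the values are given side by side and were not correlated.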

How the data were processed

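Polyadenylated RNA of the 2 lines was sequenced from stranded libraries. The submitters' processing notes name FastQC, STAR and hg38. The authors deposited raw counts per gene, 1 column per library, without normalization. The counting tool, its strand setting and the annotation are not given in the sources used here. No gene summed to fewer than 21 counts, and no row lacked a gene name.

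Counts were analysed in R 4.3.3 with edgeR 4.0.16: filterByExpr (min.count 10, min.total.count 15), TMM factors and a robust quasi-likelihood fit of all 12 libraries without a block. Contrasts compared 48 h with 0 h within each line, these responses with each other, and EW8 with TC71 at 0 h. A gene was called at an adjusted p below 0.05, alone or with a fold above 2. The procedure was tested on simulated data. Alternatives were RLE, upper-quartile and total-count scaling, the Wald test of DESeq2 1.42.0 (the tool the study names), other filters, each line alone, a fit that was not robust, an adjusted p below 0.01, the replicate block and leaving out each library. Coordinates and exon overlaps came from GENCODE release 44 and promoters from RefSeq. Figures used matplotlib 3.10.9 in Python 3.11.15.

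Members, gene lists and tests were chosen with earlier results of these data known. Every library's value is given for the 4 largest called changes in each direction and line, the 3 largest interactions and 0 h differences in each direction, GARS1 and KARS1. Genes of other lists are named where past both thresholds in both lines, and others (ATF4, ASNS, PSAT1, PHGDH, PYCR1, EIF2AK4, DTD1, EEF1E1, PTRH2, SEPSECS and XPOT) were chosen after their values were seen. Of the 41 rows, 2 are counted in the totals but are not reported here singly, in pairs or in the plots of single genes. Few counts limit SARS2 and AARSD1, with 14 to 60 per library.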

Additional observations from a re-analysis of the deposited data

Results flagged for a closer look

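The response to doxycycline withdrawal differed between the lines for 26 members, by the interaction test of edgeR at an adjusted p below 0.05, and the values given are the EW8 minus the TC71 log2 fold change. Cytosolic enzymes with a positive difference were WARS1 (0.98), CARS1 (0.60), AARS1 (0.51), SARS1 (0.50), YARS1 (0.35), LARS1 (0.33), TARS1 (0.23), FARSA (0.21) and MARS1 (0.15). Mitochondrial enzymes with a positive difference were FARS2 (0.45), HARS2 (0.43), NARS2 (0.25) and RARS2 (0.22), and the scaffold gene AIMP2 (0.47) and the dual enzyme GARS1 (0.30) were positive too. Mitochondrial enzymes with a negative difference were PARS2 (−0.54), IARS2 (−0.50), WARS2 (−0.49), EARS2 (−0.39), AARS2 (−0.31) and CARS2 (−0.25). Cytosolic enzymes with a negative difference were FARSB (−0.19), RARS1 (−0.19) and EPRS1 (−0.16). Among all genes tested, 48.1% passed the same test.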

How the results depend on the processing

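Over the 115 calls of single members and 2474 recomputed values, 2386 kept their direction and side of the threshold, 86 kept their direction but missed it and 2 turned: under total counts alone LARS2 in EW8 was 0.0024 and EPRS1 at 0 h was −0.018. That scaling moved the median of all genes by over 0.1, to 0.16 in EW8 and −0.14 at 0 h (0.05 in TC71, 0.12 for the difference). It gave cytosolic medians of 0.090 in EW8 and −0.15 in TC71 and mitochondrial medians of −0.18 and −0.063. The EW8 cytosolic median was −0.074 with upper-quartile factors, −0.062 with each line alone and −0.082 to −0.030 when 1 library was left out. Counts past a fold of 2, 0 in each contrast, became 1 for the difference under total counts alone (WARS1, 1.05) and 1 at 0 h under total counts alone and upper-quartile factors (PARS2, −1.07 and −1.02). Leaving out 1 library gave 0 to 1 in EW8 (SARS2, −1.02 without the 48 h replicate 3), 0 to 1 in TC71 (AARSD1, −1.24 without the 48 h replicate 2) and 0 to 1 for the difference (WARS1, 1.004 without the EW8 48 h replicate 1, and AARSD1, 1.03 without the TC71 48 h replicate 2). The log2 change of the cytosolic to mitochondrial ratio was 0.27 in EW8 and −0.13 in TC71, and 0.30 and −0.083 per kilobase. Without 1 library, EW8 calls were 9 to 13 higher and 19 to 23 lower, TC71 calls 1 higher and 22 to 26 lower. The replicate numbers do not pair the libraries: correlations of same-numbered libraries lay between −0.14 and −0.01. With the replicate block, 11 members were higher and 20 lower in EW8 and 1 and 24 in TC71, and the interaction gave 14 and 9; no sample correlated best with its own number.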
